A study of Rattus norvegicus with 10 samples.

Results

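The 10 antioxidant and detoxification enzymes described here are the glutathione peroxidases Gpx1, Gpx3 and Gpx4, the superoxide dismutases Sod1, Sod2 and Sod3, the catalase gene Cat, and Nqo1, Hmox1 and Gclm. They were chosen by name, 10 of the 13286 genes tested, as all probe sets with exactly 1 gene symbol among the 10. This gave 11 probe sets (2 for Gpx4) of the 31042 on the array that were not array controls, and all 11 were among the 27520 tested. The enzymes and the gene lists below were chosen with earlier results of these data known. Their counts beside shares of all probe sets are therefore descriptive. RNA came from lines of HSC-2, a hepatic stellate cell line of Wistar rats grown in high-glucose DMEM with 10% fetal bovine serum, and was hybridised to Affymetrix arrays. Clones S1, S4 and S5 were transfected to overexpress rno-miR-146a, each of them being 1 clone. The control lines were HSC-2 cells transfected with a scrambled sequence, which the series text calls GFPscr, and untransfected HSC-2 cells. Each of the 5 lines was measured at passages 42 and 43, which makes 6 clone arrays and 4 control arrays. The labels do not state whether the 2 passages were grown as separate cultures, so the spread behind each p-value is that between these arrays and may be technical.

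Superoxide formed by respiration and by NADPH oxidases is turned into hydrogen peroxide by the superoxide dismutases, which sit in the cytosol (Sod1), the mitochondrial matrix (Sod2) and the extracellular space (Sod3). Peroxide is then removed by catalase in peroxisomes and by the selenium-containing glutathione peroxidases, which draw on glutathione, while Nqo1, Hmox1 and Gclm are textbook targets of the transcription factor Nrf2 (Nfe2l2). In hepatic stellate cells, the vitamin A-storing pericytes of the liver, oxidants are among the signals linked to activation and scar formation. The microRNA made in excess in the clones is a feedback inhibitor of Toll-like and interleukin-1 receptor signalling. Its mature strand, from RefSeq on GRCr8 chr10:28350053-28350074 (minus strand), is shown with its seed, bases 2 to 8, in capitals because it is what sets the clones apart by design.
rno-miR-146a-5p: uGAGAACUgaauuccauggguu

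Median intensity per array ran from 97.2 to 103.4, and the lowest deposited value was 20, a floor shared by 14.6% of all values. Of 17 stellate cell markers, 16 were above the floor on some array, but 6 of these stayed under 100 on every array. The matrix gene Col1a1 stood at 20191 to 22766 in the clones and 17936 to 24084 in the control lines, while Lrat was at the floor and Gfap was at 28.1 to 31.5 in the clones and 29.1 to 38.1 in the control lines. Of 11 hepatocyte markers measured, 10 were above the floor, and their summed intensity was 519 to 562 in the clones against 512 to 581 in the control lines. Of 11 macrophage and leukocyte markers, 9 were above the floor on some array, and their summed intensity was 977 to 1160 in the clones against 899 to 1074 in the control lines. Cd14 had 549 to 716 in the clones against 452 to 634 in the control lines and Laptm5 127 to 165 against 134 to 153, whereas Ptprc, the defining leukocyte gene, did not exceed 21.0. Summed endothelial markers were at 681 to 732 in the clones against 694 to 813 in the control lines. Summed biliary markers were at 1628 to 4792 against 1400 to 3298, of which Spp1 alone had 1553 to 4718 against 1329 to 3233. The scrambled line stood apart in Acta2, a smooth muscle actin and activation marker of stellate cells, which read 4682 to 6834 in the clones, against 1124 and 1195 in the scrambled line and 7715 and 9626 in the untransfected line. The 3 clones share both control lines, so the comparisons below are given side by side and are not independent of each other.

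Across the 10 enzymes, the 2 secreted forms, Gpx3 and Sod3, had the largest mean differences. Gpx3 fell in all 3 clones against both control lines. Sod3 was called lower in 5 of the 6 comparisons, Nqo1 in 3 and Gclm in 1, and no enzyme was called higher in any of the 6. Gpx1, Gpx4, Sod1, Sod2, Cat and Hmox1 passed the test in none. Of these, Gpx1, Sod1 and Gpx4 (1386871_at) had differences above 0 in all 6, and Sod2 and Gpx4 (1391529_at) below 0 in all 6. A call is an adjusted p under 0.05 over all 27520 probe sets in limma. Called lower were 3 of the 11 probe sets in S1 against the scrambled line, where 1.81% of all probe sets were called lower and 2.38% higher. In S1 against the untransfected line 3 of 11 were called lower, beside 2.32% of all lower and 2.06% higher. For S4 these counts were 2 of 11 against the scrambled line (background 1.37% lower, 2.27% higher) and 2 of 11 against the untransfected line (1.71% lower, 1.82% higher). For S5 they were 2 of 11 against the scrambled line (1.45% lower, 1.99% higher) and 3 of 11 against the untransfected line (1.95% lower, 1.68% higher). Of all probe sets, 0.243% were called lower and 0.411% called higher in all 6 comparisons, and Gpx3 was the one member called so, always lower. When passage was added to the fit as a replicate block, the count for S1 against the untransfected line was 6 of 11, the added ones being Sod2, Cat and Gclm, and of all probe sets 4.58% were then called lower and 4.28% higher.

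**Figure D1:**
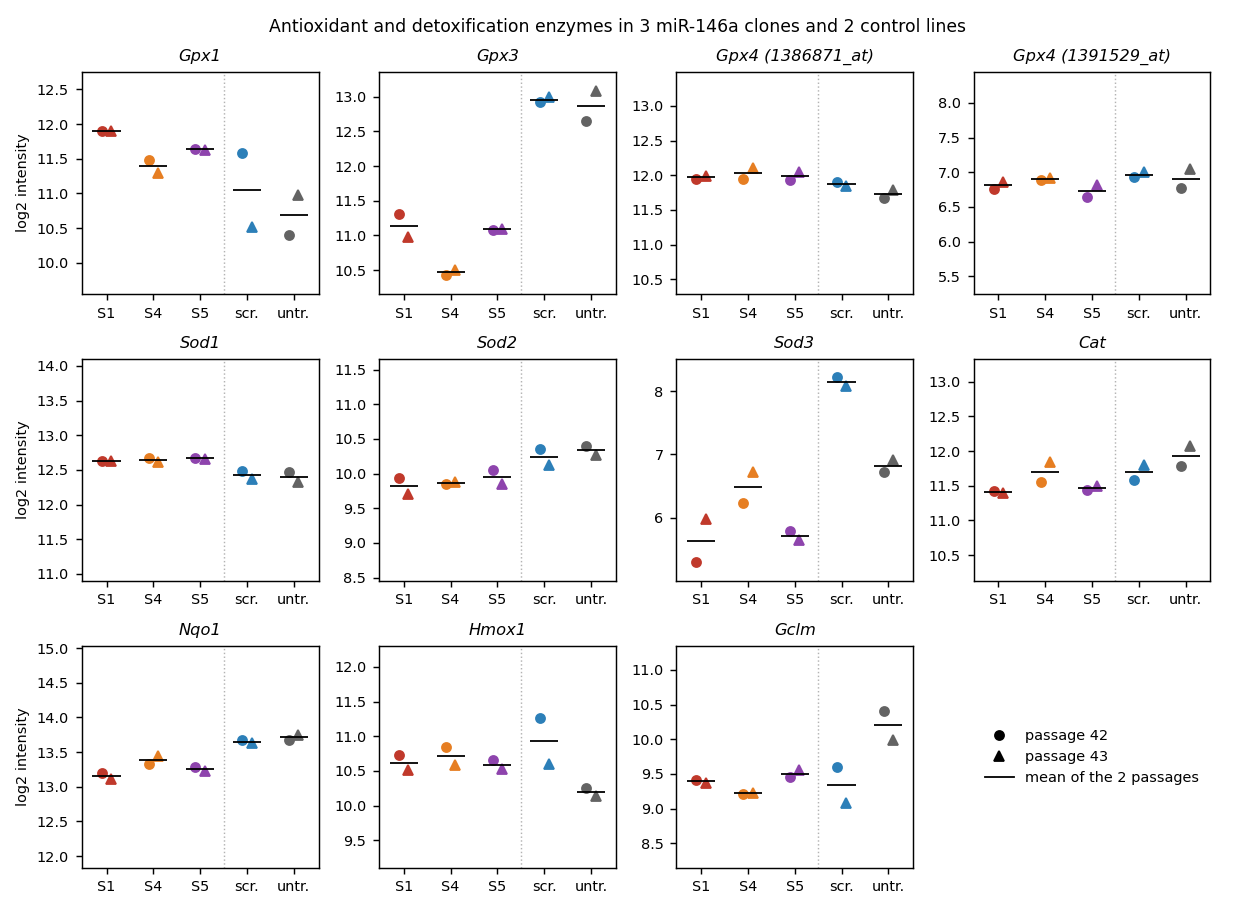
Log2 intensity of the 11 probe sets of the 10 enzymes on each array, with clones S1, S4 and S5 to the left of the scrambled and untransfected lines, circles for passage 42, triangles for passage 43 and black lines for the mean of 2 passages. The clone arrays of Gpx3 (highest 2534 intensity units) lie below all control arrays (lowest 6427), while those of Hmox1 and Gclm fall within the range of the control arrays.

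Gpx3, the secreted glutathione peroxidase found in plasma, had 2534 and 2018 intensity units in S1, 1381 and 1450 in S4 and then 2173 and 2191 in S5, against 7740 and 8201 in the scrambled line and 6427 and 8677 in the untransfected line (passages 42 and 43). The 6 clone arrays and the 4 control arrays did not overlap, and the lowest control array was above the highest clone array, as for 3.44% of all probe sets. Against the scrambled line the log2 difference of Gpx3 was -1.82 in S1, -2.49 in S4 and -1.87 in S5 (SE 0.16 each; limma adjusted p = 0.00115, 0.000251 and 0.00108). Against the untransfected line it was -1.72, -2.40 and -1.78 (adjusted p = 0.00178, 0.000432 and 0.00167). Gpx3 was thus 3.30-fold to 5.63-fold lower in the clones. The control lines lay 0.09 apart on the log2 scale (95% interval -0.28 to 0.47), with overlapping arrays, and S1 lay 0.05 above S5, also with overlapping arrays. S4 was the lowest line, 0.62 below S5 (interval 0.25 to 1.001, not adjusted for the choice of this pair), yet the F test between the 3 clones gave an adjusted p of 1. All 6 calls of Gpx3 held in 17 of 18 alternative settings and were lost where the fit held just the 4 arrays of the lines compared (adjusted p = 0.0502 to 0.133).

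Averaged over lines, with the line as the replicate, Gpx3 was lower in the 3 clones than in the 2 control lines (log2 difference -2.01, SE 0.23, adjusted p = 0.0436). It was the one member called in that comparison, beside 0.294% of all probe sets called lower and 0.603% called higher. This line-level call was kept in 11 of 23 alternative settings. It was lost without any 1 of the 5 lines, without passage 43 of S1, S4 or scrambled cells or passage 42 of S5 or untransfected cells, with the floor raised to 40 and with no filter (adjusted p over the settings 0.000214 to 0.290). In bulk RNA of a line, fewer cells that express a gene and less RNA of it per cell cannot be told apart, here and in every comparison below. Over the 10 arrays the probe sets most like Gpx3, among 1554 with line means spanning at least 1 log2 unit, were Cdh13 (2 probe sets, Pearson r = 0.99 and 0.98), encoding T-cadherin, and the matrix gene Col15a1 (r = 0.98). The closer Cdh13 probe set stood at 56.7 to 118 in the clones against 855 to 1338 in the control lines, and Col15a1 at 23.7 to 57.5 against 1381 to 2521. These correlations rest on arrays that share lines and carry no p.

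Gpx1 and Gpx4 passed the test in no comparison. Gpx1, the abundant cytosolic form, had 3834 and 3819 intensity units in S1, 2860 and 2524 in S4 and then 3204 and 3165 in S5, against 3066 and 1467 in the scrambled line and 1349 and 2014 in the untransfected line. The groups overlapped through the scrambled array of passage 42, which was above both S4 arrays. Log2 differences of Gpx1 ran from 0.34 (S4 against scrambled) to 1.21 (S1 against untransfected, 95% interval 0.48 to 1.95), with an SE of 0.32 and adjusted p of 0.0814 to 0.706. The wide SE went with opposite moves of the control lines between passages: Gpx1 at passage 43 minus passage 42 was -1.06 in the scrambled line and 0.58 in the untransfected line, but -0.18 to -0.01 in the clones. Without the scrambled array of passage 43, the S4 difference from the scrambled line was -0.19. Without that of passage 42, the S1 difference from the scrambled line was 1.38. The probe sets most like Gpx1 were those of Akap7 (r = 0.93), a kinase anchoring protein gene, Ltbp1 (r = 0.93), whose product binds latent TGF-beta, and the acetyltransferase gene Kat2b (r = 0.92).

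Gpx4, the peroxidase that reduces lipid hydroperoxides in membranes, has 2 probe sets whose differences had opposite signs. The one numbered 1386871_at had 3961 and 4075 in S1, 3940 and 4414 in S4 and then 3907 and 4218 in S5, against 3825 and 3698 in the scrambled line and 3261 and 3545 in the untransfected line. All 6 clone arrays of it were above all 4 control arrays, a pattern of 4.06% of all probe sets. Yet the log2 differences were only 0.10 to 0.29 (SE 0.10, limma adjusted p = 0.191 to 0.761). After quantile normalization the difference of S1 from the scrambled line was -0.03. The Gpx4 probe set 1391529_at read 100 to 121 in the clones against 110 to 132 in the control lines, overlapping, with log2 differences of -0.23 to -0.01 (SE 0.12; adjusted p = 0.416 to 0.996).

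Sod1, the cytosolic copper and zinc dismutase, had 6313 and 6357 in S1, 6553 and 6271 in S4 and then 6547 and 6448 in S5, against 5755 and 5290 in the scrambled line and 5698 and 5121 in the untransfected line. The clone arrays were all above the control arrays, a pattern of 4.06% of all probe sets, but no comparison of Sod1 passed the test (log2 difference 0.20 to 0.27, SE 0.10, adjusted p = 0.193 to 0.396). On line means Sod1 was at 0.23 (adjusted p = 0.182). The adjusted p was 0.0424 in a limma fit of all arrays with line as a random block. It was 0.0530 with passage as a replicate block as well. The estimated correlation of arrays within a line was 0.0485 in that fit, or 0.210 with the passage block. Passages of a line thus counted largely as separate replicates, here and for Sod2, Sod3 and Nqo1 below. The highest upper limit of the 95% intervals of Sod1 was 0.49 log2 units (S5 against untransfected). These intervals are not adjusted and rest on the spread between passage arrays, not on that between clones.

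Sod2, the manganese dismutase of mitochondria, had 983 and 833 in S1, 920 and 941 in S4 and then 1064 and 920 in S5, against 1308 and 1120 in the scrambled line and 1353 and 1232 in the untransfected line. All clone arrays of Sod2 were below all control arrays, as for 3.44% of all probe sets. Log2 differences were -0.42 (S1), -0.38 (S4) and -0.29 (S5) from the scrambled line and -0.51, -0.47 and -0.38 from the untransfected line (SE 0.13), and none passed the test (adjusted p = 0.0780 to 0.358). With passage as a replicate block, S1 and S4 passed against the untransfected line (adjusted p = 0.0253 and 0.0373). On line means Sod2 was at -0.41 (adjusted p = 0.101), and it passed when line was a random block in a fit of all arrays (0.0205, or 0.0138 with passage as a replicate block as well).

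Sod3, the extracellular dismutase bound to heparan sulfate, had 39.3 and 62.9 in S1, 75.6 and 106 in S4 and then 55.1 and 49.98 in S5, against 298 and 271 in the scrambled line and 105 and 121 in the untransfected line. The scrambled line was above every other line, and the untransfected line overlapped S4. Against the scrambled line Sod3 was -2.51 in S1, -1.67 in S4 and -2.44 in S5 on the log2 scale (SE 0.24; adjusted p = 0.00137, 0.00939 and 0.00175). Against the untransfected line it was -1.19 in S1 and -1.11 in S5 (adjusted p = 0.0353 and 0.0484), and -0.34 in S4, which did not pass (adjusted p = 0.530, 95% interval -0.89 to 0.21).

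The control lines themselves differed in Sod3, by 1.33 log2 units in the scrambled over the untransfected line (adjusted p = 0.0194), so the size of the fall in the clones depends on the control line. With the floor raised to 40 intensity units, the calls of S1 and S5 against the untransfected line were lost (adjusted p = 0.101 and 0.121), as they were with no filter on low values (0.104 and 0.126). So was the difference between the control lines (0.0643 and 0.0681), which was also lost without any 1 of their 4 arrays. The S1 call against the untransfected line was also lost without S1 passage 42 and without any 1 array of S5, scrambled or untransfected cells (adjusted p over the settings 0.0176 to 0.229). The S5 call there was lost without any single S4, S5, scrambled or untransfected array (0.0244 to 0.233), and the S4 call against the scrambled line with no filter and without S4 passage 42 or either scrambled array (0.00439 to 0.123). On line means Sod3 was at -1.54 (SE 0.47, adjusted p = 0.234). It passed when line was a random block in a fit of all arrays (0.0344, or 0.0482 with passage as a replicate block as well). That fit counted the passages of a line largely as separate replicates, although the Sod3 arrays of each control line lay close together. Most like Sod3 over the 10 arrays were Celf4 (r = 0.96), an RNA-binding protein gene, Cd248 (r = 0.96), the pericyte and fibroblast surface protein endosialin, and the glutamine synthetase gene Glul (r = 0.95).

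Cat, the peroxisomal catalase, had 2754 and 2687 in S1, 3002 and 3684 in S4 and then 2773 and 2887 in S5, against 3067 and 3573 in the scrambled line and 3526 and 4291 in the untransfected line. The S4 arrays overlapped those of both control lines, and those of S1 and S5 were below all 4 control arrays. Log2 differences of Cat ran from -0.52 (S1 against untransfected) to 0.01 (S4 against scrambled), with an SE of 0.14, and none passed the test (adjusted p = 0.0973 to 1). With passage as a replicate block, S1 against the untransfected line did (adjusted p = 0.0346).

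**Figure D2:**
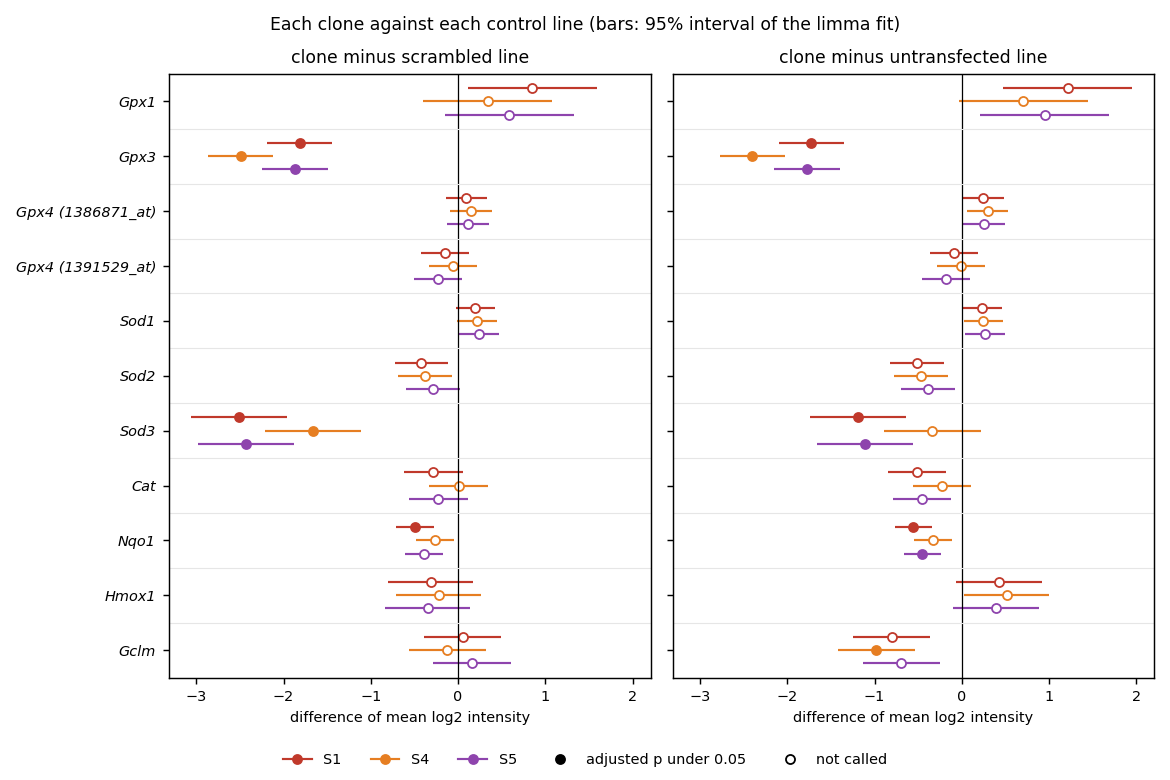
Difference of mean log2 intensity of each clone from the scrambled line (left panel) and from the untransfected line (right panel) for the 11 probe sets, with bars for the 95% interval of the fit and filled points for an adjusted p under 0.05. Gpx3 lies between -2.49 and -1.72 in all 6 comparisons, while Sod3 and Gclm depend on which control line is used.

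Nqo1, Hmox1 and Gclm, the Nrf2 targets among the 10 enzymes, did not move together. Nqo1, a quinone reductase, had 9433 and 8875 in S1, 10318 and 11109 in S4 and then 10023 and 9632 in S5, against 13054 and 12654 in the scrambled line and 13123 and 13759 in the untransfected line. The clone arrays were all below the control arrays, as for 3.44% of all probe sets. S1 was at -0.49 against the scrambled and -0.55 against the untransfected line, and S5 at -0.45 against the untransfected line (SE 0.09; adjusted p = 0.0295, 0.0186 and 0.0440), which makes Nqo1 between 1.37-fold and 1.47-fold lower.

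The remaining 3 comparisons of Nqo1 did not pass: S5 against scrambled at -0.39 (adjusted p = 0.0755), and S4 at -0.26 and -0.33 (0.218 and 0.118). S5 against scrambled did pass with the floor raised to 40, with no filter and with a trend and robust prior (limma adjusted p = 0.0349, 0.0368 and 0.0456). On line means Nqo1 was at -0.41 (SE 0.09, adjusted p = 0.136). It passed when line was a random block in a fit of all arrays (0.00874, or 0.0172 with passage as a replicate block as well). The scrambled minus the untransfected line was -0.06 in Nqo1 (95% interval -0.28 to 0.15). The call of S1 against scrambled was lost without any single S1, S4, S5 or scrambled array (adjusted p over the settings 0.0147 to 0.232). That of S1 against untransfected was lost without either S1 array or untransfected passage 43 (0.00856 to 0.172). That of S5 was lost under the stricter filter and without any single array except untransfected passage 42 (0.0244 to 0.226).

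Hmox1, heme oxygenase 1, which breaks down heme to biliverdin, had 1697 and 1462 in S1, 1839 and 1530 in S4 and then 1607 and 1473 in S5, against 2469 and 1553 in the scrambled line and 1226 and 1125 in the untransfected line. In mean the clones lay between the control lines. All 6 clone arrays were above both untransfected arrays, and they overlapped the scrambled arrays. Log2 differences of Hmox1 were -0.35 to -0.22 from the scrambled line and 0.39 to 0.51 from the untransfected line (SE 0.21; adjusted p = 0.260 to 0.711). The scrambled line was 0.74 above the untransfected line (adjusted p = 0.0857, or 0.0189 with passage as a replicate block). Without the scrambled array of passage 42, S1 and S4 were at 0.02 and 0.11 from the scrambled line.

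Gclm, the modifier subunit of the enzyme that limits glutathione synthesis, had 684 and 663 in S1, 591 and 601 in S4 and then 700 and 754 in S5, against 779 and 542 in the scrambled line and 1362 and 1015 in the untransfected line. The untransfected arrays were above all others, and the scrambled arrays spanned the clones. From the untransfected line Gclm was at -0.98 in S4 (SE 0.19, adjusted p = 0.0350, 1.97-fold lower), -0.80 in S1 (adjusted p = 0.0599) and -0.70 in S5 (adjusted p = 0.0975). From the scrambled line it was at 0.05 in S1, -0.12 in S4 and 0.16 in S5 (adjusted p = 0.963, 0.838 and 0.782). The scrambled line itself was lower than the untransfected line by a difference of -0.86 (adjusted p = 0.0421). The S4 call was lost without any single clone or untransfected array (adjusted p over the settings 0.0176 to 0.206), with the floor raised to 40 and with no filter on low values (0.1005 in both). That of the scrambled line was lost with median centring, the raised floor or no filter, and without any single array except scrambled passage 42 (0.0197 to 0.337). With passage as a replicate block, S1 against the untransfected line passed as well (adjusted p = 0.0300).

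Between the control lines, 2 of the 11 probe sets were called, Sod3 higher and Gclm lower in the scrambled line, beside 2.23% of all probe sets called higher and 3.87% called lower. The F test between the 3 clones called 0 of the 11 probe sets and 0.0327% of all, and the widest span of clone means was 0.85 log2 units, in Sod3. Passage 43 against passage 42 also gave 0 of 11, beside 5.52% of all probe sets. The largest passage difference among the members was that of Hmox1, at -0.28 (SE 0.09, adjusted p = 0.129), with each of the 5 lines lower at passage 43.

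Nrf2 binds DNA with small Maf proteins at the antioxidant response element, whose core is written TGACNNNGC. It was searched on both strands from 250 bases before to 50 bases after the start in the RefSeq promoter table of GRCr8, which held 8 of the 10 genes (not Hmox1 or Sod3). Of these 8 genes, Sod2 and Gclm had 1 match each, both on the strand opposite to the gene and none overlapping another. Of all 33469 promoters of that length 12.1% had one. That share counts promoters, not genes, and a gene such as Gpx4 can have several. The match of Gclm begins at -172 from its start and that of Sod2 at -35. The promoters of Sod2 (chr1:50050119-50050418, minus strand) and Gclm (chr2:213031885-213032184, plus strand) are shown with the match in capitals, and that of Gpx3 (chr10:39529085-39529384, plus strand) because its transcript was called in all 6 comparisons. A match describes the letters and is not a site shown to be used.
Gclm: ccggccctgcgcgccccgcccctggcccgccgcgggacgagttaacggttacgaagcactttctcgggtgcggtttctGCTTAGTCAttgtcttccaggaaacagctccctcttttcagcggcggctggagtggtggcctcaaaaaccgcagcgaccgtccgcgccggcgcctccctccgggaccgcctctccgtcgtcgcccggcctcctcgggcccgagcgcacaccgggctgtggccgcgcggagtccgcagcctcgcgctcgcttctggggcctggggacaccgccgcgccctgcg
Sod2: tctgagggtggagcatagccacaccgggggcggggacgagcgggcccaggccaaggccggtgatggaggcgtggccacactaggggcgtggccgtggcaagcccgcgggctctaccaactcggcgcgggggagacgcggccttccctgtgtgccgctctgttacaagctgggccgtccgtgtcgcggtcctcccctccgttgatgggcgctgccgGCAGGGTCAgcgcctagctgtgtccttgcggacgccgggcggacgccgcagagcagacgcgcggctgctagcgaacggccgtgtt
Gpx3: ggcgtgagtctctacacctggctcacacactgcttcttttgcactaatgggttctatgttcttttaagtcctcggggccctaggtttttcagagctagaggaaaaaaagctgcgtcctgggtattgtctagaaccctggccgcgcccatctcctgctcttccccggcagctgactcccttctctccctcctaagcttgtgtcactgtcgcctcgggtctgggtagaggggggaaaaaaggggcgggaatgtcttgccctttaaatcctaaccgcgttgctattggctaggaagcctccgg

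Nfe2l2 and Keap1, the central pair of this pathway, passed the test in no comparison. Here and for the list genes below, each gene is represented by its probe set of highest mean. Nfe2l2 (Nrf2) had 4828 to 6146 intensity units in the clones against 3993 to 5460 in the control lines, with log2 differences of 0.10 to 0.24 (adjusted p = 0.653 to 0.857). Keap1, which marks Nrf2 for degradation, had 277 to 300 against 247 to 313 and differences of -0.09 to 0.24 (adjusted p = 0.227 to 0.972). Among 10 genes of Nrf2 regulation measured by that probe set, only the small Maf gene Mafg was called. It was at -0.65 in S1 against the untransfected line (limma adjusted p = 0.0436). With the probe set of largest variance instead, 1 of the 10 was called lower in S1 against the scrambled line. Against the untransfected line 2 were then called lower in S1. With the block Mafg passed in S4, S5 and the scrambled line against the untransfected line as well (adjusted p = 0.0479, 0.0426 and 0.0382). The bZIP genes Nfe2l1 and Maff, which had the next largest mean differences, were at 0.23 and 0.28 and were called nowhere.

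Genes of glutathione synthesis and recycling were called mostly against the untransfected line. Of 12 measured, 4 were lower in S1, 3 in S4 and 1 in S5 against the untransfected line, against 1, 0 and 0 against the scrambled line, and none was called higher in the clones. Of all probe sets, 2.32%, 1.71% and 1.95% were called lower against the untransfected line and 1.81%, 1.37% and 1.45% against the scrambled line. With the block, 7, 6 and 6 of the 12 were lower against the untransfected line, where 4.58%, 3.35% and 3.98% of all probe sets were. Against the scrambled line 1, 0 and 0 stayed lower, beside 3.42%, 2.74% and 2.85% of all, and Ggct was higher in S4 and S5 (adjusted p = 0.0400 and 0.0421). Without the block, the called genes were Gclc, Gss, Ggt1 and Ggt5 in S1, Gss, Ggt5 and Ggt7 in S4 and Ggt5 in S5, with Oplah in S1 against the scrambled line. In the scrambled line itself Gclc, Ggt1, Ggt5, Slc7a11 and Ggct, 5 of the 12, were lower than in the untransfected line (7 with the block), beside 3.87% of all probe sets (7.46% with the block). The median difference over the 12 genes was -0.59, -0.54 and -0.47 in S1, S4 and S5 against the untransfected line, and 0.12, 0.15 and 0.21 against the scrambled line, where the median of all probe sets was near 0 (-0.01 in S1 in both). Ggt5, a gamma-glutamyl transferase that splits leukotrienes and glutathione, had 68.4 to 129.5 in the clones, against 44.3 and 101 in the scrambled line and 380 and 638 in the untransfected line. It was at -2.37, -2.39 and -2.25 in S1, S4 and S5 against the untransfected line (adjusted p = 0.0267, 0.0269 and 0.0357) and at -2.88 in the scrambled line (0.0106).

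Gclc, the catalytic partner of Gclm, had 997 to 1182 in the clones, against 1387 and 970 in the scrambled line and 1799 and 2344 in the untransfected line. It was called in S1 against the untransfected line (-0.95, adjusted p = 0.0338) and between the control lines (-0.82, adjusted p = 0.0444). In S4 and S5 it was at -0.81 and -0.80 (0.0625 and 0.0634, or 0.0479 in both with passage as a replicate block). The cystine transporter gene Slc7a11, which feeds glutathione synthesis, had 200 to 389 in the clones, against 346 and 206 in the scrambled line and 1233 and 718 in the untransfected line. It was at -1.82, -1.84 and -1.63 (0.0565, 0.0619 and 0.0857) in the clones and -1.82 in the scrambled line (0.0480). With the block all 3 clones passed (0.000135, 0.000123 and 0.000250). For these 3 genes and Gclm the untransfected line stood above the other 4 lines, scrambled included.

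**Figure D3:**
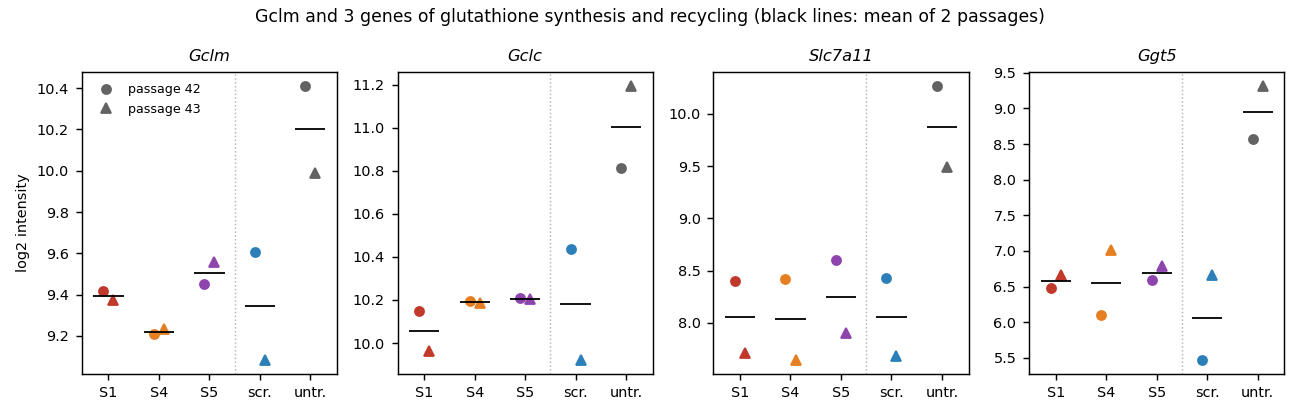
Log2 intensity of Gclm, Gclc, Slc7a11 and Ggt5 on each array, clones to the left of the control lines, with circles for passage 42, triangles for passage 43 and black lines for the mean of 2 passages. The untransfected arrays of Gclm (1362 and 1015 intensity units) lie above those of the clones and of the scrambled line, and likewise in the other 3 genes.

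Other redox and detoxification genes were taken from 11 lists of 184 genes, of which 158 were measured, 1 probe set a gene. In S1, S4 and S5 against the scrambled line 5, 6 and 2 of the 158 were called lower and 0, 2 and 0 higher. As shares, 3.16%, 3.80% and 1.27% were lower, beside 1.81%, 1.37% and 1.45% of all probe sets. Against the untransfected line 13, 14 and 7 were lower and 3, 1 and 1 higher. The shares lower were 8.23%, 8.86% and 4.43%, beside 2.32%, 1.71% and 1.95% of all. Between the control lines, 16 were lower (10.1%, beside 3.87% of all) and 2 higher in the scrambled line. With passage as a replicate block, 7, 8 and 5 were lower and 2, 8 and 7 higher against the scrambled line, where 3.42%, 2.74% and 2.85% of all probe sets were lower and 4.31%, 4.19% and 3.86% higher. Against the untransfected line 27, 27 and 22 were then lower and 6, 5 and 4 higher, beside 4.58%, 3.35% and 3.98% of all lower and 4.28%, 3.56% and 3.66% higher. Between the control lines 27 were then lower and 4 higher in the scrambled line, beside 7.46% and 5.63% of all. None was called in all 6 comparisons without the block, and Me1, Por and Abcc4 were with it, all lower, beside 0.44% of all probe sets called lower and 0.774% higher in all 6. Genes called in at least 1 numbered 26 without the block and 51 with it. The share of all probe sets called in at least 1 was not computed, so these counts have no background. The median of the mean differences was -0.03 over the 158 genes against -0.01 over all probe sets.

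Me1, Gstm1, Abcc4 and Por were lower in 5 of the 6 comparisons without the block, and Por was named after its values were seen. Me1, the malic enzyme that makes cytosolic NADPH, had 2464 and 2344 in S1, 1903 and 2158 in S4 and then 2154 and 2395 in S5, against 3466 and 3779 in the scrambled line and 3282 and 3189 in the untransfected line. Its clone arrays were all below its control arrays, as for 3.44% of all probe sets. The log2 differences of Me1 were -0.84 to -0.43. S1 against the untransfected line was the one that did not pass (limma adjusted p = 0.0737, or 0.0462 with the block). Gstm1, a glutathione S-transferase of the mu class, had 626 to 786 in the clones against 892 to 1457 in the control lines. It was at -1.13, -1.09 and -0.85 against the untransfected line (adjusted p = 0.00291, 0.00352 and 0.0112), and at -0.62, -0.58 and -0.34 against the scrambled line (0.0314, 0.0437 and 0.228). Abcc4, an efflux pump for organic anions and conjugates, had 725 to 948 in the clones against 1390 to 2147 in the control lines, with log2 differences of -1.21 to -0.84. S5 against scrambled did not pass (adjusted p = 0.0606, or 0.0472 with the block), and on line means Abcc4 was at -1.02 (adjusted p = 0.0322). Por, the reductase that passes electrons to microsomal cytochrome P450s, had 568 to 691 in the clones against 872 to 970 in the control lines, at -0.65 to -0.42, S5 against untransfected not passing (adjusted p = 0.0663, or 0.0469 with the block).

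Of the other detoxification genes, Akr1b1, an aldose reductase, was at -0.98 in S4 against the untransfected line (adjusted p = 0.0269), and the 5 remaining comparisons of it did not pass. With the block, S1 and S5 against the untransfected line passed too (0.0369 and 0.0426). Cyp1b1, a cytochrome P450 that also metabolises retinoids, was higher in S1 against the untransfected line (1.29, adjusted p = 0.0292), with 1459 to 2498 in the clones against 814 to 1336 in the control lines. With the block it was also called in S1 and S5 against the scrambled line (0.00566 and 0.0260) and in S4 and S5 against the untransfected line (0.0219 and 0.00781). Mgst3, a microsomal transferase, was lower in S4 against both the scrambled (-1.69, adjusted p = 0.0465) and the untransfected line (-1.75, adjusted p = 0.0420), and Gsta4 passed in none, or with the block in S1 against the untransfected line (-1.08, 0.0136). In the thioredoxin list of 24 genes, Sesn3 was lower in S4 against scrambled (-1.46, adjusted p = 0.0347), whereas Txnrd3 and Msra, at mean differences of 0.43 and 0.47, passed in none. With the block Txnrd3 was higher in all 3 clones against the scrambled line (0.0113, 0.0298 and 0.0386). Of the 3 other glutathione peroxidases measured, none passed: Gpx2 lay at 20 to 26.5, near the floor, and Gpx7 and Gpx8 had mean differences of 0.11 and -0.13.

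In the lists that serve the members, the copper genes delivering the metal to Sod1 and Sod3 included Atp7a, the copper pump that loads secreted enzymes. It had 669 to 764 in the clones, against 499 and 650 in the scrambled line and 1494 and 1244 in the untransfected line. Atp7a was at -0.96, -0.93 and -0.87 against the untransfected line (adjusted p = 0.0133, 0.0164 and 0.0225) and at -1.26 between the control lines (0.00404), but at 0.30 to 0.39 against the scrambled line, with none passing. Of 15 genes of selenoprotein synthesis and other selenoproteins measured, only Selenon was called without the block, higher in S1 against the untransfected line (0.75, adjusted p = 0.0306). With the probe set of largest variance instead, 1 of the 15 was called higher in S1 and 1 in S5 against the untransfected line. With that rule 1 copper gene was called higher in each clone against the untransfected line. Selenop and Eefsec, with mean differences of -0.64 and -0.39, passed in none. With the block Selenop was lower in S1 against both the scrambled and the untransfected line (0.00197 and 0.00584) and in S5 against the scrambled line (0.0202). The copper genes Slc31a2 and Mt2A, at 0.32 and 0.20, passed in none, and with the block Slc31a2 was higher in S5 against the scrambled line (0.0379). Without the block, none of the 18 heme and iron genes was called in a clone, the largest mean differences being those of Ireb2 (0.30), Ppox (0.28) and Tfrc (0.27). With it, Ppox was higher in S4 against the scrambled line (0.0386), and the iron exporter gene Slc40a1 was lower in all 3 clones against the untransfected line (0.00309, 0.00623 and 0.00978) and higher in S4 and S5 against the scrambled line (0.0314 and 0.0187). Without the block, none was called either of the 14 sources of superoxide and peroxide, where Cyba, a subunit of NADPH oxidases, had 1852 to 1985 in the clones against 1415 to 1537 in the control lines (adjusted p = 0.0535 to 0.158). With the block Cyba was higher in S1 and S5 against the untransfected line (0.0381 and 0.0488). Aox1 and Xdh, which make peroxide and superoxide, had mean differences of 0.97 and -0.70, and with the block Aox1 was higher in S5 against the scrambled line (0.0407) and the monoamine oxidase gene Maoa lower in S4 against the untransfected line (0.0441). Tkt and Taldo1 of the pentose phosphate pathway had mean differences of -0.09 and -0.36 and were not called in the clones, while with the block Tkt was lower in all 3 against the untransfected line (0.0276, 0.0364 and 0.0370).

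**Figure D4:**
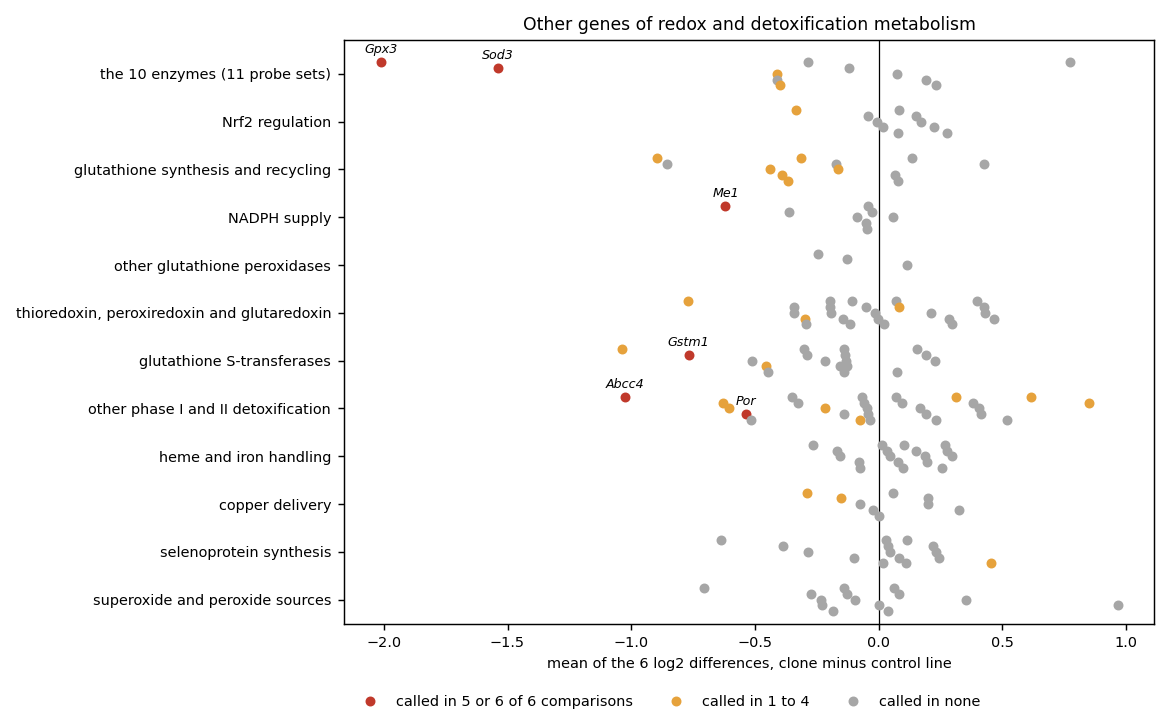
Mean of the 6 log2 differences, clone minus control line, for each of the 11 probe sets of the 10 enzymes (top row) and the 158 measured genes of the other lists, coloured by the number of comparisons called without the passage block. Gpx3 and Sod3 lie farthest to the left, and Me1, Gstm1, Abcc4 and Por are the list genes called in 5 comparisons.

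The Acta2 level of the scrambled line, the summed markers and the passage differences are given as measured, and their part in the results was not tested.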

How the data were processed

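Total RNA had been labelled with biotin in one cycle of cDNA synthesis, per the labels' protocols. The authors deposited 1 intensity per probe set and array on a linear scale with a floor of 20, and the submitters' processing notes name RMA. The RMA version and the origin of the floor are not stated in those sources. The tests had been planned for a log2 table, so the deposited intensities were converted to log2. From the 31099 probe sets, 57 array controls were removed, as were 3522 that never left the floor, and 27520 were tested. The platform annotation gave 1 symbol to 19202 of them, several to 399 and none to 7919. All 11 member probe sets matched the GRCr8 gene table by gene identifier.

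Differences were fitted in limma 3.58.1 (R 4.3.3) with eBayes, and p-values were adjusted by Benjamini-Hochberg over all tested probe sets. One fit of the 10 arrays with a coefficient for each line left 5 residual degrees of freedom and served the single-line comparisons and the F test between clones. A fit of the 5 line means (3 residual degrees of freedom) compared clones with control lines, and the fit for passage 43 against 42 had a term for line. Alternatives changed the normalization, floor, filter, prior or arrays used, or added passage as a replicate block. Deviations from the line means at a passage correlated between every pair of lines (10 pairs, r = 0.136 to 0.648). The main fits that gave the single-line calls did not pair samples by passage. In comparisons of lines, such pairing entered only where passage was a replicate block. Blocked values appear beside the members where the block changed a call, beside some of the list genes described, and beside the counts. Calls of other list genes, such as Gss, Ggt7 and Gstm1, changed with the block as well and enter only the counts. The number of arrays limits the precision. Procedures were tested on simulated data.

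The members and gene lists were chosen with earlier results of these data known. A list gene is represented by its probe set of highest mean. The text names list genes called one way in all 6 comparisons and the 3 per list with the largest absolute mean difference. It also names the 3 probe sets most correlated with each member whose line means span at least 1 log2 unit. Genes named outside these rules, such as Por, Slc40a1, Nfe2l2, Keap1 and Col1a1, were chosen after their values were seen. Promoters came from the RefSeq table of GRCr8. Promoters of Hmox1 and Sod3, and proteins, were not used here.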

Additional observations from a re-analysis of the deposited data

How the results depend on the processing

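The 88 member results were recomputed under the alternatives, giving 1639 values, of which 1487 kept direction and side of the threshold, 101 fell below it, 27 passed it and 24 changed sign, all 24 in results that were not called. Each of the 6 Gpx3 calls held in 17 of 18 settings. The cause of the changes below was not tested. With passage as a replicate block, probe sets called numbered 2129 (S1), 1906 (S4) and 1845 (S5) against scrambled, where 1153, 1002 and 948 were called without it. They numbered 2439, 1904 and 2103 against untransfected (1205, 970 and 999 without it), 3602 between the control lines (1679) and 25 between clones (9). Members called in S1 against untransfected were 6, and 5 after quantile normalization (3 without either). Among comparisons of single lines, the block changed the member calls given above for Sod2, Cat, Gclm and Hmox1 and no others. Of list genes called in at least 1 comparison there were 51 with it and 26 without, with no such share of all probe sets computed.

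With the floor raised to 40, 595, 566 and 450 probe sets were called against scrambled, 559, 493 and 496 against untransfected, 966 between control lines, 45 on line means (247 as reported) and 631 by passage (1520 as reported). Members called were then 1 in S4 against untransfected, 0 between control lines and 0 on line means. With no filter the counts were 616, 574 and 467 against scrambled, 602, 503 and 526 against untransfected, 1014 between control lines, 4 between clones, 14 on line means and 625 by passage. Members called were then 1 in S4 against each control line, 0 between control lines and 0 on line means. Median centring left 1 member called between control lines. The trend and robust prior gave 17 probe sets between clones. A fit of only the 4 arrays compared (2 residual degrees of freedom) called 0, 0 and 8 probe sets against scrambled, 4, 2 and 0 against untransfected and 13 between control lines, and 0 members in each. Clones were also compared with control lines in a fit of all arrays, not of line means, with line as a random block. That fit counted the passages of a line largely as separate replicates. It called 1315 probe sets and 5 members, or 1205 and 4 with passage as a replicate block as well. The 5 were Gpx3, Sod1, Sod2, Sod3 and Nqo1, and Sod1 was not among the 4.

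Leaving out 1 array at a time gave 273 to 1310, 340 to 1150 and 238 to 1050 probe sets against scrambled. It gave 250 to 2353, 273 to 1918 and 214 to 2160 against untransfected, 647 to 3262 between control lines, 5 to 9 between clones and 0 to 1848 by passage. On line means, leaving out an array or a line gave 0 to 2968. Members called were 1 to 4 in S1 against untransfected, 1 to 2 in S4 against either control line, 1 to 2 in S5 against untransfected, 0 to 1 between control lines and 0 to 3 on line means.

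Signs turned under quantile normalization for Gpx4 (1386871_at) in S1 against scrambled (-0.031), Cat in S4 against scrambled (-0.11; -0.061 with median centring) and Nqo1 between control lines (0.0013). Leaving out an array, differences from scrambled ran from -0.65 to 0.020 for Hmox1 in S1, -0.56 to 0.11 for Hmox1 in S4, -0.21 to 0.31 for Gclm in S1, -0.39 to 0.14 for Gclm in S4, -0.10 to 0.42 for Gclm in S5, -0.19 to 0.87 for Gpx1 in S4 and -0.14 to 0.15 for Cat in S4. Those of Gpx4 (1391529_at) from untransfected ran from -0.23 to 0.037 in S1 and -0.14 to 0.13 in S4. Scrambled minus untransfected ran from -0.17 to 0.90 for Gpx1, -0.12 to 0.31 for Gpx3, -0.076 to 0.19 for Gpx4 (1391529_at), -0.046 to 0.11 for Sod1 and -0.21 to 0.019 for Sod2. Line means, with lines also left out, ran from -0.30 to 0.44 for Hmox1 and -0.83 to 0.029 for Gclm. Of the lists' 84 counts, 79 stayed within 1.5 times with the probe set of largest variance and 5 did not.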
